A study of Mus musculus with 6 samples.

Results

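A set of 10 Wnt signalling genes was examined in basal epidermal cells of pregnant and virgin mice. They were 6 Wnt ligands made in epidermis (Wnt3, Wnt4, Wnt5a, Wnt7b, Wnt10a and Wnt16), 3 secreted inhibitors (Sfrp1, Dkk3 and Wif1) and the target gene Axin2. The members were chosen by name, with earlier results of these data known. Every probe set that the array's annotation assigns to a member was taken. This gave 21 of 45101 probe sets and 10 of 18193 genes. The samples were cells from skin of 10-week-old adult female C57BL/6 mice, purified by cell sorting for surface α6 integrin, a hemidesmosome subunit of basal keratinocytes, after dead cells were left out with propidium iodide. There were 3 groups of 2 arrays each, namely ventral skin at 16 days post-coitus (16 dpc ventral), dorsal skin at the same stage (16 dpc dorsal) and ventral skin of virgin mice (virgin ventral). No gene had been altered in any group. A dorsal group from virgin mice was not analysed here. The labels do not say whether arrays of a group came from separate mice, so p-values measure only the spread between these arrays, which may be technical. They also do not say whether 16 dpc ventral and dorsal arrays came from the same mice, and the test took them as separate. The sort gate also takes α6 integrin-positive cells of the hair follicle.

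Wnt proteins are secreted lipid-modified ligands. In the canonical branch a Wnt binds a Frizzled receptor together with Lrp5 or Lrp6, the complex that destroys β-catenin is held back, and β-catenin with TCF/LEF factors switches on target genes. Axin2 is such a target and is itself a scaffold of the destruction complex, so it reads out the pathway and also dampens it. Interfollicular basal cells make several Wnts and are known to need Wnt signalling for self-renewal, and Sfrp, Dkk and Wif proteins act outside the cell to limit the ligands or their receptors.

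The RefSeq promoter table (build GRCm38.p6) held 5 of the 10 members, Wnt3, Wnt4, Wnt16, Wif1 and Axin2. The 250 bases before the start are shown for 4 of them. Wnt16 had the lowest log2 fold change among members, Axin2 is the target gene, and Wnt3 and Wnt4 were both highest in 16 dpc ventral cells without overlap. Capitals mark the letters of a CCAAT box, CCAAT on either strand.
Wnt3 (chr11:103773925-103774174, plus strand): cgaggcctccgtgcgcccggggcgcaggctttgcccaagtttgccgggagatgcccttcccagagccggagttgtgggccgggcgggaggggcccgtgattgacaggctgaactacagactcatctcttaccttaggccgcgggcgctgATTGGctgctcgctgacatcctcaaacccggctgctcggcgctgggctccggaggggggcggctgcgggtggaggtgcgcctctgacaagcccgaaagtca
Wnt4 (chr4:137277385-137277634, plus strand): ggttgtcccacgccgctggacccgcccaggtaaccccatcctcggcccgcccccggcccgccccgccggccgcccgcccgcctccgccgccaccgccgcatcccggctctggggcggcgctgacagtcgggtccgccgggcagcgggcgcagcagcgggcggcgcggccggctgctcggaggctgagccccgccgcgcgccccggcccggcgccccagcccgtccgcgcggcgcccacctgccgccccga
Wnt16 (chr6:22287977-22288226, plus strand): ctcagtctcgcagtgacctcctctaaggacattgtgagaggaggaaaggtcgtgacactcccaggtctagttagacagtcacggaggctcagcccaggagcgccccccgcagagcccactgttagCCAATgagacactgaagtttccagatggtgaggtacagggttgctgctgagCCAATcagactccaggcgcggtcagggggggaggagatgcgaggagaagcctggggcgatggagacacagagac
Axin2 (chr11:108920099-108920348, plus strand): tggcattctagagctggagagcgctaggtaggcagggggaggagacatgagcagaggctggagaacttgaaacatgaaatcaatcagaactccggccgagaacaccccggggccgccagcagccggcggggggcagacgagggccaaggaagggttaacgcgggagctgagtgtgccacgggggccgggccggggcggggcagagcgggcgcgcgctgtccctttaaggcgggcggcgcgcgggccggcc
Wnt16 held 2 CCAAT boxes and Wnt3 held 1, a motif found in 33.8% of the 32851 promoters when the same 250 bases were searched. The TCF/LEF letters, which were CTTTGAA or CTTTGAT or CTTTGTA or CTTTGTT on either strand, were in none of the 5 member windows and in 14.8% of all promoters. The TATA box TATAAA, which does not overlap the other motifs in its letters, was found in the Wif1 window alone among the 5, against 12.4% of all promoters. A match of letters is a description of the window and not a binding site.

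Signals are MAS5 values on a linear scale, on which each array has the same trimmed mean, and each carries a detection call of present, marginal or absent. Present calls covered 47.2 to 53.3% of probe sets per array. The arrays stood apart in RNA quality. The actin 3′ to 5′ ratio, which grows when the 5′ end of transcripts is lost, was 1.78 and 3.90 on 16 dpc ventral replicates 1 and 2, 2.04 and 4.47 on the 16 dpc dorsal pair and 2.46 and 2.15 on the virgin ventral pair. For GAPDH transcripts this ratio stood at 1.61 and 2.86 on the 16 dpc ventral pair, 1.89 and 2.83 on the 16 dpc dorsal pair and 2.50 and 1.53 on the virgin ventral pair, so that virgin ventral replicate 1 lay near both 16 dpc replicate 2 arrays on this measure and apart from them on the actin ratio. All 11 basal keratinocyte markers were present on all 6 arrays, with Krt5 and Krt14 the brightest. Their summed signal lay between 148017 and 166381 in 16 dpc ventral, 141504 and 199334 in 16 dpc dorsal and 158056 and 162530 in virgin ventral cells.

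Of the 21 member probe sets 14 were present on all 6 arrays, 6 on some and 1 on none. Of the 10 genes 9 were tested, since both arrays of some group called them present, each through its probe set of highest mean signal. Wif1 did not. Wnt16 entered only through the virgin ventral pair, so the filter itself favoured a lower 16 dpc value of this gene. None of the 9 passed an adjusted p of 0.05 in any comparison (limma on all 6 arrays). Over all genes 0.2% passed in 16 dpc ventral over virgin ventral, 0.0819% in 16 dpc ventral over 16 dpc dorsal and 0% in 16 dpc dorsal over virgin ventral. At an unadjusted p under 0.05 the 8 members other than Wnt16 counted 1 (Wnt5a, lower), 0, and 2 (Wnt5a and, through its brighter probe set, Wnt7b, both lower) in that order of comparisons, against 11.6%, 5.09% and 7.27% of all genes, of which 5.47%, 2.44% and 3.39% were lower. Wnt16 is left out of these counts because of the filter. The differences below are therefore given as values with their errors.

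**Figure D1:**
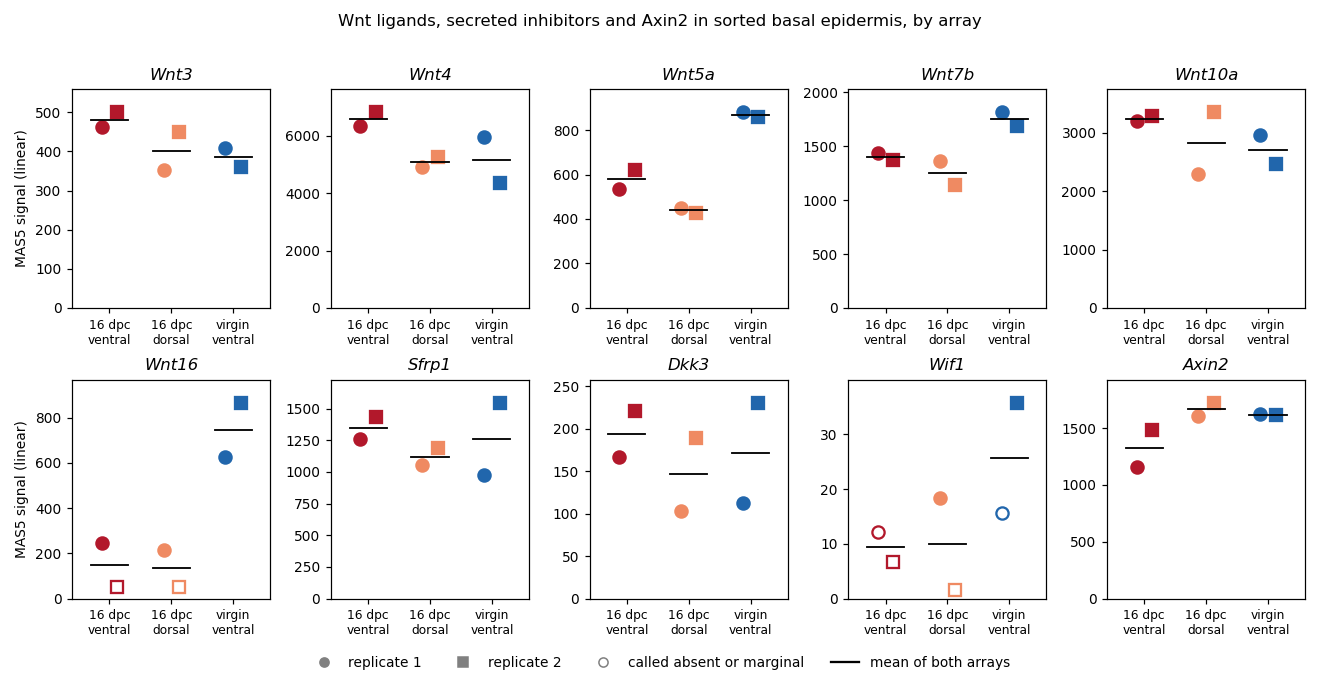
MAS5 signal (vertical axis, linear, from 0) of the probe set used for each of the 10 genes on the 6 arrays, grouped as 16 dpc ventral, 16 dpc dorsal and virgin ventral. Circles are replicate 1, squares replicate 2, open symbols are not present, and bars are the mean of both arrays. Wnt5a, Wnt16 and Wnt7b (through its brighter probe set) lie highest in virgin ventral cells, with Wnt16 at 625 and 864 there, while Axin2 is lowest on 16 dpc ventral replicate 1 at 1156.

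Wnt3, Wnt4 and Wnt10a, ligands of epidermis and hair follicle, had their highest means in 16 dpc ventral cells, and none of these differences passed the test. Wnt4 had signals of 6362 and 6819 in 16 dpc ventral, 4907 and 5276 in 16 dpc dorsal and 5969 and 4375 in virgin ventral cells. Both 16 dpc ventral arrays were above the other 4, while the dorsal and virgin arrays overlapped. The log2 fold change was 0.37 ± 0.18 (SE) over virgin ventral (adjusted p = 0.472, limma) and 0.37 ± 0.18 over 16 dpc dorsal (adjusted p = 0.9999, limma), with 95% intervals from -0.04 to 0.77 and from -0.03 to 0.78. A further Wnt4 probe set, 1441687_at, ran the same way at 2736 and 3216 in 16 dpc ventral, 2010 and 2702 in 16 dpc dorsal and 2565 and 2258 in virgin ventral cells. Its log2 fold changes for 16 dpc ventral cells were 0.30 over the virgin and 0.35 over the dorsal pair.

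Wnt3 stood at 462 and 499 in 16 dpc ventral, 353 and 450.0 in 16 dpc dorsal and 410 and 361 in virgin ventral cells. Again the 16 dpc ventral pair lay above all other arrays, by log2 fold changes of 0.32 ± 0.22 (SE) over the virgin and 0.27 ± 0.22 over the dorsal pair. Wnt10a, a ligand of hair, tooth and skin appendages, stood at 3197 and 3284 in 16 dpc ventral, 2287 and 3345 in 16 dpc dorsal and 2951 and 2456 in virgin ventral cells. Its 16 dpc ventral pair lay above the virgin pair (log2 fold change 0.27 ± 0.20) but inside the spread of the dorsal pair. Wnt3 and Wnt10a had 1 probe set each, so no second measurement of these genes was at hand.

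Across the 6 arrays the log2 signals of Wnt3 correlated with those of Wnt10a at r = 0.95 and with those of Wnt4 at r = 0.86. These are descriptions over 6 arrays that share their scaling and group structure.

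Wnt5a, the ligand best known for β-catenin-independent signalling and planar polarity, was lower in both 16 dpc groups through its brightest probe set, 1436791_at, with neither difference past the test. Its signals were 536 and 621 in 16 dpc ventral, 451 and 425 in 16 dpc dorsal and 879 and 857 in virgin ventral cells. The 3 groups did not overlap, and the order ran from dorsal through 16 dpc ventral to virgin. The log2 fold change was -0.99 ± 0.18 (SE) in 16 dpc dorsal over virgin ventral cells, a ratio of 0.505 (95% interval 0.378 to 0.674), with adjusted p = 0.187 (limma). In 16 dpc ventral over virgin ventral cells it was -0.59 ± 0.18 (adjusted p = 0.271, limma), and over 16 dpc dorsal cells it was 0.40 ± 0.18 (adjusted p = 0.9999, limma). Within replicates 1 and 2 the differences of 16 dpc ventral from virgin ventral were -0.71 and -0.47, and those of 16 dpc dorsal from virgin ventral were -0.96 and -1.01.

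The further Wnt5a probe sets gave less even values. With the mean of all Wnt5a probe sets the log2 fold changes shrank to -0.04 in 16 dpc ventral and -0.48 in 16 dpc dorsal over virgin ventral cells. That mean takes in 1456976_at, present on 1 array alone, whose own log2 values were 1.24 and 1.08 in these comparisons. Probe set 1448818_at stood at 471 and 203 in 16 dpc ventral, 338 and 120.0 in 16 dpc dorsal and 615 and 446 in virgin ventral cells. Both of its low 16 dpc values were on the arrays with actin ratios of 3.90 and 4.47, and the part of RNA quality in this difference was not tested. Probe set 1437673_at stood at 145 and 179 in 16 dpc ventral, 99.8 and 113 in 16 dpc dorsal and 128 and 214 in virgin ventral cells, so that its dorsal pair was lowest and the ventral and virgin pairs overlapped. All 3 kept Wnt5a probe sets were lower in 16 dpc dorsal than in virgin ventral cells without overlap, by log2 values from -1.38 to -0.64, and the fourth, 1456976_at, was present on 1 array alone.

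Wnt7b, a canonical ligand of epithelia, stood at 1439 and 1371 in 16 dpc ventral, 1360 and 1144 in 16 dpc dorsal and 1814 and 1686 in virgin ventral cells. The virgin pair lay above all 4 pregnancy arrays. The log2 fold change was -0.32 ± 0.16 (SE) in 16 dpc ventral over virgin ventral (adjusted p = 0.485, limma) and -0.49 ± 0.16 in 16 dpc dorsal over virgin ventral cells (adjusted p = 0.602, limma). A further Wnt7b probe set, 1420891_at, went the other way. It stood at 123 and 85.3 in 16 dpc ventral, 86.5 and 96.6 in 16 dpc dorsal and 65.8 and 50.7 in virgin ventral cells, a log2 fold change of 0.82 ± 0.37 over virgin ventral for 16 dpc ventral and 0.66 ± 0.37 for 16 dpc dorsal cells. Both probe sets separated the virgin pair from the pregnancy arrays in opposite directions, so no direction is given for the gene.

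Wnt16, a ligand of basal epidermis and hair follicle, had the lowest log2 fold change of the members and the widest spread. Its only probe set stood at 245 and 49.7 in 16 dpc ventral, 216 and 52.9 in 16 dpc dorsal and 625 and 864 in virgin ventral cells. It was present on both virgin arrays and on replicate 1 of each 16 dpc group, and absent on replicate 2 of each. The log2 fold change was -2.74 ± 0.78 (SE) in 16 dpc ventral over virgin ventral cells, a ratio of 0.15 (95% interval 0.044 to 0.512), with adjusted p = 0.248 (limma). In 16 dpc dorsal over virgin ventral cells it was -2.78 ± 0.78 (adjusted p = 0.515, limma), and in 16 dpc ventral over 16 dpc dorsal cells it was 0.05 ± 0.78, with a 95% interval from -1.72 to 1.81. Both absent calls fell on the arrays with the highest actin ratios. Without these arrays, which are the ones on which the gene was absent and were taken out after seeing the data, the log2 fold changes over virgin ventral were -1.59 for 16 dpc ventral and -1.77 for 16 dpc dorsal cells. These values rest on 1 array of each 16 dpc group and are given as effect sizes, and a call made in that setting is no support for the gene. Within replicate 1 alone, where the gene was present on all 3 arrays, the difference of 16 dpc ventral from virgin ventral was -1.35 and that of 16 dpc dorsal was -1.53.

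Wnt5a, Wnt16 and the brighter Wnt7b probe set stood beside differences in markers of spinous and granular keratinocytes, none of which passed the test. The 8 markers were present on all arrays, led by Krt10 and Krt1, and 7 of 8 had a lower mean in 16 dpc ventral than in virgin ventral cells (median log2 fold change -0.73, against 0.02 over all genes, 0 called). Their summed signal lay between 71310 and 78737 in 16 dpc ventral, 72154 and 91592 in 16 dpc dorsal and 84607 and 87738 in virgin ventral cells, so that the dorsal range took in the virgin one. Krt10 and Krt1, which led this sum, were both highest on 16 dpc dorsal replicate 2. By median, 16 dpc dorsal cells were also below virgin ventral ones, at a log2 value of -0.61 against 0.07 over all genes. Of the 8 markers 1 was above its virgin mean in dorsal cells, and 0 were called there. The part of these markers in the Wnt5a, Wnt7b and Wnt16 values was not tested. In sorted bulk cells, fewer cells of a type and less RNA per cell cannot be told apart.

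**Figure D2:**
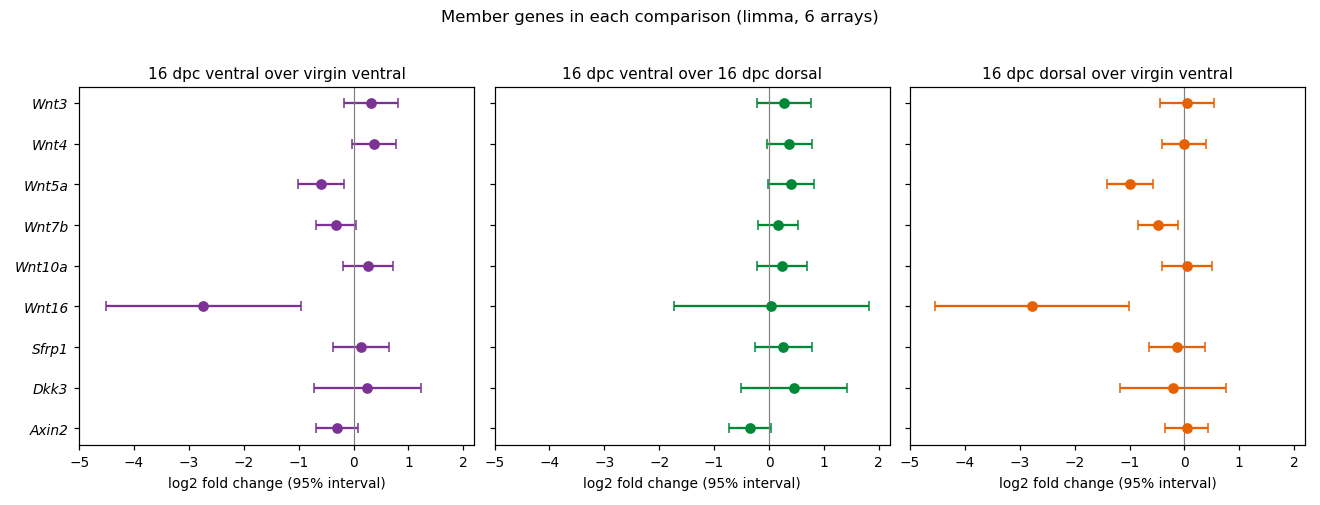
Log2 fold change with its 95% interval (horizontal axis, limma on all 6 arrays) of the 9 tested members in 16 dpc ventral over virgin ventral, 16 dpc ventral over 16 dpc dorsal and 16 dpc dorsal over virgin ventral cells. The interval of Wnt5a lies below 0 against virgin ventral cells in both 16 dpc groups and that of the brighter Wnt7b probe set in the dorsal group alone, before adjustment over all genes. Wnt16, tested only through the virgin ventral pair, has the widest interval.

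Among secreted inhibitors, Sfrp1 carries a cysteine-rich domain like that of Frizzled and can keep ligands from their receptors. Its brightest probe set, 1428136_at, stood at 1261 and 1431 in 16 dpc ventral, 1058 and 1187 in 16 dpc dorsal and 974 and 1544 in virgin ventral cells. The 16 dpc ventral pair lay above the dorsal pair (log2 fold change 0.26 ± 0.23 SE, adjusted p = 0.9999, limma) and inside the spread of the virgin pair (0.13 ± 0.23, adjusted p = 0.866, limma). The 95% interval against virgin ventral cells ran from -0.38 to 0.65. Leaving out 1 array at a time turned this value between -0.20 and 0.46.

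Other Sfrp1 probe sets gave mixed values. Probe set 1448395_at stood at 836 and 407 in 16 dpc ventral, 715 and 230.3 in 16 dpc dorsal and 958 and 933 in virgin ventral cells, again with its low values on the arrays with high actin ratios. Probe set 1460187_at stood at 440.1 and 225 in 16 dpc ventral, 246 and 218 in 16 dpc dorsal and 169 and 225 in virgin ventral cells. Probe set 1416594_at stood at 133 and 115 in 16 dpc ventral, 138 and 83.2 in 16 dpc dorsal and 141 and 299 in virgin ventral cells. Log2 differences of the 4 kept Sfrp1 probe sets in 16 dpc ventral over virgin ventral cells ran from -0.73 to 0.69, so they set no common direction. In 16 dpc ventral over 16 dpc dorsal cells all 4 were positive, from 0.21 to 0.52, and 1 of the 4 did not overlap. The fifth, 1438620_x_at, was present on 2 arrays.

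Dkk3, a Dickkopf family protein whose action on Wnt signalling varies with the cell, stood at 167 and 220.3 in 16 dpc ventral, 104 and 189 in 16 dpc dorsal and 113 and 230.1 in virgin ventral cells. All pairs overlapped, and the replicate 2 array was the higher one in each group. The log2 fold changes were 0.25 ± 0.43 (SE) over virgin ventral and 0.45 ± 0.43 over 16 dpc dorsal for 16 dpc ventral cells. Its further probe set, 1417312_at, was present on 1 array.

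Wif1, which binds Wnts through its WIF domain, was near the detection limit in all groups. It stood at 12.1 and 6.69 in 16 dpc ventral, 18.4 and 1.59 in 16 dpc dorsal and 15.6 and 35.7 in virgin ventral cells. It was present on dorsal replicate 1 and virgin replicate 2 and on no 16 dpc ventral array. No fold change is given for the dorsal group. Both 16 dpc ventral signals were not above background. No bound against virgin ventral cells is given, since the virgin ventral mean rests on 1 present array of 2. The log2 differences of the signals from virgin ventral cells were -0.37 within replicate 1 and -2.42 within replicate 2, without a test.

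Markers of hair follicle and dermis bear on these inhibitors, which are known from follicle and dermal cells too. The 11 bulge and outer root sheath markers were all kept, with summed signals between 50144 and 53492 in 16 dpc ventral, 45794 and 61533 in 16 dpc dorsal and 50727 and 56770 in virgin ventral cells, led by Krt15 and Gas1. Virgin replicate 2, the highest array for Dkk3, Wif1 and the brightest Sfrp1 probe set, was the highest for 6 of these 11 markers, 16 dpc ventral replicate 1 for 2, each of 16 dpc ventral replicate 2 and both 16 dpc dorsal arrays for 1, and virgin replicate 1 for 0. Krt15, the brightest, was highest on 16 dpc dorsal replicate 2, and Gas1 on 16 dpc ventral replicate 2. Virgin replicate 2 was also the highest for 5 of 8 spinous and granular markers, 2 of 3 kept fibroblast markers and 1 of 11 basal keratinocyte markers. Of 10 fibroblast markers 3 were kept and 4 were absent on all 6 arrays (Col1a2, Pdgfra, Lum and Pdgfrb), with Vim and Fbln1 the brightest. Their summed signal lay between 1102 and 1425 in 16 dpc ventral, 1013 and 1028 in 16 dpc dorsal and 872 and 1032 in virgin ventral cells. Vim, which led this sum, stood at 1077 and 746 in 16 dpc ventral and 462 and 396 in virgin ventral cells. Dcn went the other way, at 39.1 and 33.0 against 122 and 196, as did Col3a1 by mean log2 signal. The median log2 fold change of the 3 kept markers over virgin ventral was -0.64 in 16 dpc ventral cells. Of 9 vessel and smooth muscle markers 6 were absent on all arrays, and of 7 dermal papilla markers 4 were. The part of follicle or dermal cells in the Sfrp1, Dkk3 and Wif1 values was not tested.

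**Figure D3:**
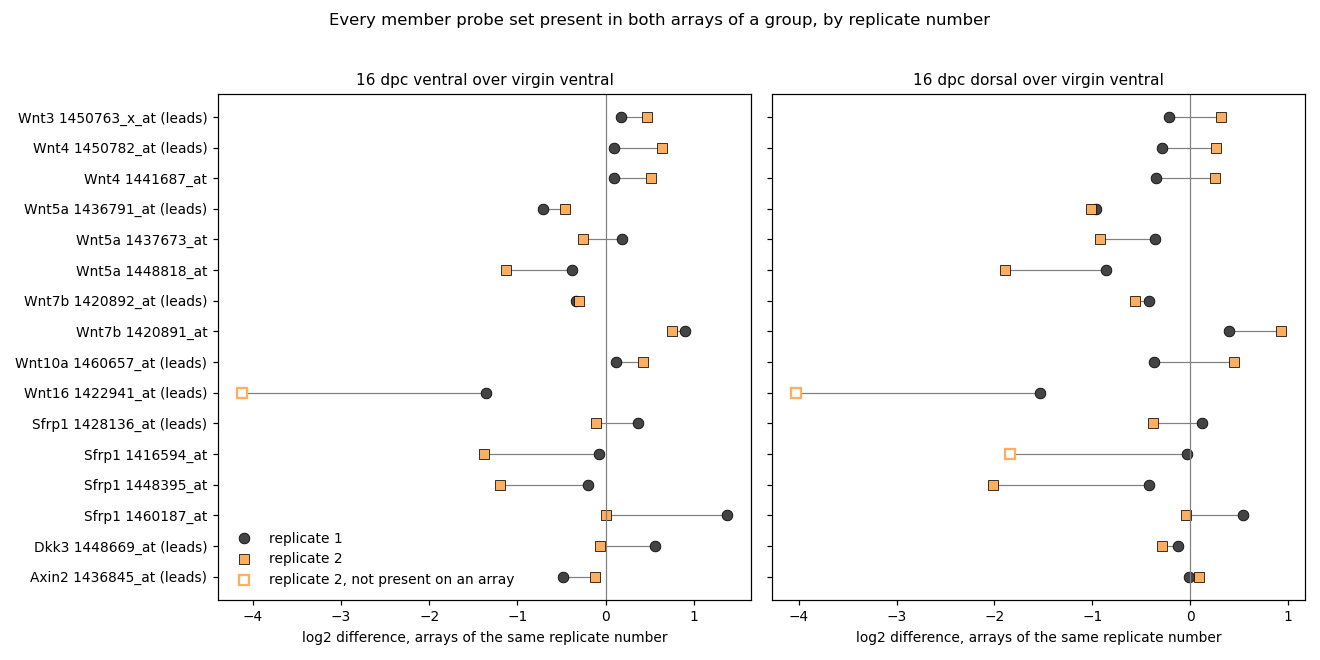
Log2 difference from the virgin ventral array of the same replicate number (horizontal axis) for the 16 kept member probe sets, with 16 dpc ventral on the left and 16 dpc dorsal on the right. Circles are replicate 1 and squares replicate 2, and each line joins both, with open symbols where an array did not call the probe set present. Wnt16 lies at -1.35 in replicate 1 of 16 dpc ventral cells and has an open symbol in replicate 2 of both 16 dpc groups, Wnt7b probe sets lie on opposite sides of 0, and the Sfrp1 and Wnt5a probe sets 1448395_at and 1448818_at lie further below 0 in replicate 2.

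Axin2, the target gene and feedback scaffold, had its lowest signals on both 16 dpc ventral arrays, with no overlap with the other 4, and neither difference passed the test. Its signals were 1156 and 1488 in 16 dpc ventral, 1610.4 and 1721 in 16 dpc dorsal and 1621 and 1613 in virgin ventral cells. The dorsal and virgin arrays together spanned only 1610.4 to 1721, and 16 dpc ventral replicate 2 lay closer to them than replicate 1 did. The log2 fold change was -0.30 ± 0.17 (SE) over virgin ventral cells, a ratio of 0.811 (95% interval 0.62 to 1.06), with adjusted p = 0.538 (limma). Over 16 dpc dorsal cells it was -0.34 ± 0.17, a ratio of 0.788 (95% interval 0.602 to 1.03), with adjusted p = 0.9999 (limma). In 16 dpc dorsal over virgin ventral cells it was 0.04 ± 0.17. Within replicates 1 and 2 the differences of 16 dpc ventral from virgin ventral were -0.49 and -0.12, and those from 16 dpc dorsal were -0.48 and -0.21. The spread between both 16 dpc ventral arrays, 0.36 on the log2 scale, was wider than either difference between groups. The other Axin2 probe set, 1421341_at, was absent on all 6 arrays, with 37.7 and 16.4 in 16 dpc ventral, 21.6 and 6.52 in 16 dpc dorsal and 45.7 and 8.00 in virgin ventral cells.

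Cells other than keratinocytes were read from markers of mammary epithelium and of antigen-presenting cells. Of 9 mammary and milk markers 6 were tested and 0 called, 4 of the 6 with a higher mean in 16 dpc ventral than in virgin ventral cells, with median log2 fold changes of 2.41 over virgin ventral and 2.49 over dorsal cells for 16 dpc ventral cells. Their summed signal lay between 1558 and 12417 in 16 dpc ventral, 604 and 877 in 16 dpc dorsal and 802 and 1180 in virgin ventral cells, and Lalba was absent on all 6 arrays. Csn2, a milk casein and the brightest of them, stood at 6185 and 699 in 16 dpc ventral, 204 and 348 in 16 dpc dorsal and 172 and 2.29 in virgin ventral cells, so its highest array, 16 dpc ventral replicate 1, was the lowest for Axin2. The keratins Krt8 and Krt18 of this list went the other way against virgin ventral cells. Krt8 stood at 104 and 9.98 in 16 dpc ventral and 220 and 474 in virgin ventral cells. Krt18 stood at 94.3 and 47.6 in 16 dpc ventral and 161 and 413 in virgin ventral cells. Of 7 Langerhans and antigen-presenting cell markers 6 were tested, with median log2 fold changes over virgin ventral of 0.91 in 16 dpc ventral and 0.96 in 16 dpc dorsal cells, and 1 of them was called, higher in 16 dpc ventral over virgin ventral cells (Csf1r, a receptor of myeloid cells, named after its values were seen). Their summed signal lay between 7768 and 10363 in 16 dpc ventral, 9523 and 10464 in 16 dpc dorsal and 6568 and 7275 in virgin ventral cells, led by Epcam and H2-Aa. Of the 6 tested, 5 had a higher mean in 16 dpc ventral than in virgin ventral cells, and Epcam had a lower one. Epcam stood at 3480 and 2908 in 16 dpc ventral, 4247 and 4294 in 16 dpc dorsal and 3090 and 5138 in virgin ventral cells. The part of these cells in the Axin2 values was not tested.

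The pattern over arrays was compared with that of every other tested gene for Axin2, Wnt16 and Wnt5a. The genes most like Axin2 over the 6 arrays were Fam120aos (r = 0.99), Miip (r = 0.98) and Faf2 (r = 0.98), and 123 of 10984 genes had r over 0.9. Those most like Wnt16 were Ddx23, Ptbp3 and Ggps1 (r = 0.99 each), with 265 genes over 0.9. Ggps1 stood at 628 and 314 in 16 dpc ventral, 603 and 296 in 16 dpc dorsal and 877.5 and 877.6 in virgin ventral cells, with the same low replicate 2 arrays as Wnt16. Those most like Wnt5a were Klk8 (r = 0.98), Kcnj16 (r = 0.97) and Kbtbd11 (r = 0.97), with 39 genes over 0.9. Klk8, an epidermal kallikrein protease, stood at 1342 and 1512 in 16 dpc ventral, 957 and 609 in 16 dpc dorsal and 3270 and 2857 in virgin ventral cells. With 6 arrays such correlations are descriptions only, and the arrays share their groups.

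Counted over the 8 tested members other than Wnt16, the groups did not overlap for 3 higher (Wnt3, Wnt4, Wnt10a) and 3 lower genes (Wnt5a, Wnt7b through its brighter probe set, Axin2) in 16 dpc ventral over virgin ventral cells, where 23.8% and 19.8% of all genes were higher and lower without overlap. In 16 dpc ventral over 16 dpc dorsal cells 5 were higher (Wnt3, Wnt4, Wnt5a, Wnt7b through its brighter probe set, Sfrp1) and 1 lower (Axin2), against 13.1% and 19.7% of all genes. The dimmer Wnt7b probe set overlapped in that comparison. In 16 dpc dorsal over virgin ventral cells 0 were higher and 2 lower (Wnt5a, Wnt7b through its brighter probe set), against 24.3% and 13.6%. The dimmer Wnt7b probe set was higher there. These comparisons share groups, and the members were not drawn at random. The sign was the same within both replicate numbers for 6, 7 and 3 of the 8 members in these comparisons, against 59.0%, 59.9% and 54.7% of all genes.

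The rest of the pathway was read from 9 lists of 119 genes, of which 115 were on the array and 76 were tested. The lists were chosen with earlier results of these data known, so counts over them are descriptions and no test of the lists. Of the 76 tested, 1 passed in 16 dpc ventral over virgin ventral and 2 in 16 dpc ventral over 16 dpc dorsal cells, all lower. In 16 dpc dorsal over virgin ventral cells 0 passed. The shares of all genes were 0.2%, 0.0819% and 0% in that order. Both genes belonged to the list of R-spondins, their receptors and ligases (9 listed, 6 tested), the module that raises Wnt receptor levels at the cell surface. Rspo3, a secreted R-spondin, had signals of 241 and 276 in 16 dpc ventral, 787 and 778 in 16 dpc dorsal and 1086 and 877 in virgin ventral cells. It was lower in 16 dpc ventral cells by -1.92 ± 0.20 (log2, SE, adjusted p = 0.0142, limma) against virgin ventral and by -1.60 ± 0.20 (adjusted p = 0.0276, limma) against dorsal cells. Lgr6, an R-spondin receptor of epidermal stem cells, had signals of 788 and 903 in 16 dpc ventral, 2778 and 3880 in 16 dpc dorsal and 1567 and 1783 in virgin ventral cells. It was lower by -1.96 ± 0.20 against dorsal cells (adjusted p = 0.0152, limma), and the 16 dpc ventral over virgin ventral difference was -0.99 ± 0.20 (adjusted p = 0.122, limma, or 0.0351 once replicate number was blocked). Both genes lay lowest on the same 16 dpc ventral arrays as Axin2, where Csn2 was highest. Krt8 and Krt18 had lower means there than in virgin ventral cells, and the part of mammary cells in these values was not tested. These calls did not hold under every setting. Under the 10 alternatives other than leaving out 1 array, Rspo3 lost its call against virgin ventral in 4 and against dorsal cells in 6, and Lgr6 against dorsal cells in 5, with adjusted p up to 0.854, 0.972 and 0.181 (limma). Leaving out 1 array at a time kept these calls in 2, 0 and 3 of 6 fits. With the mean of all probe sets Rspo3 turned to 0.27 over virgin ventral cells, a mean that takes in its probe set 1443187_at, absent on all 6 arrays.

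Other Wnt ligands were mostly undetected, with 4 of 13 tested (Wnt3a, Wnt5b, Wnt6 and Wnt11) and 0 called. Wnt6 had a log2 fold change of 0.55 over virgin ventral and 0.50 over dorsal cells in 16 dpc ventral cells, and Wnt11, a non-canonical ligand, of -1.07 and -0.20. Over virgin ventral cells the values within replicates 1 and 2 were -0.05 and 1.16 for Wnt6 and -0.24 and -1.89 for Wnt11. Of 7 genes of Wnt secretion 5 were tested and 0 called. Wls, the carrier that takes Wnts to the cell surface, stood at 4581 and 5491 in 16 dpc ventral, 4120 and 5354 in 16 dpc dorsal and 3926 and 4194 in virgin ventral cells, and the log2 fold changes of Tmed5, Porcn and Trabd2b over virgin ventral were 0.19, -0.04 and -0.23. Over 16 dpc dorsal cells those of Tmed5, Porcn and Trabd2b were 0.07, 0.29 and -0.22.

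Of 16 Frizzled receptors and co-receptors 13 were tested and 0 called, with a median log2 fold change of -0.02 over virgin ventral cells. Ror1, a receptor for Wnt5a, had a log2 fold change of 0.71 in 16 dpc ventral (adjusted p = 0.426, limma) and 0.85 in 16 dpc dorsal cells over virgin ventral cells, opposite in sign to Wnt5a. Fzd3 was at 351 and 297 in 16 dpc ventral, 636 and 559 in 16 dpc dorsal and 482 and 314 in virgin ventral cells, a log2 fold change of -0.88 over dorsal cells (adjusted p = 0.601, limma). Fzd1 and Lrp4 had log2 fold changes of -0.35 and -0.08 over virgin ventral cells.

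Of 15 other extracellular inhibitors 14 were on the array, 5 were tested and 0 called. Sostdc1, a BMP and Wnt antagonist of skin appendages, stood at 5882 and 4276 in 16 dpc ventral, 5602 and 5332 in 16 dpc dorsal and 7850.3 and 9364 in virgin ventral cells, a log2 fold change of -0.77 over virgin ventral cells (adjusted p = 0.210, limma). Dkkl1 and the Dickkopf receptor Kremen1 had values of -1.08 and -0.18. Within replicates 1 and 2 Dkkl1 had -0.36 and -1.81. Its lowest signals, 128 and 118, were on the replicate 2 arrays of the 16 dpc groups, those with the high actin ratios. Among 17 destruction complex and Dishevelled genes 14 were tested and 0 called, with Csnk1e at -1.07 (adjusted p = 0.148, limma), the β-catenin inhibitor Ctnnbip1 at -0.76 and Amer1 at 0.17 over virgin ventral cells. Over 16 dpc dorsal cells Csnk1e, Ctnnbip1 and Amer1 had -0.45, -0.12 and 0.39. Ctnnbip1 had -0.09 within replicate 1 and -1.44 within replicate 2 over virgin ventral cells.

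Nuclear effectors (11 of 14 tested, 0 called) had 8 genes with a lower and 3 with a higher mean in 16 dpc ventral than in virgin ventral cells, with a median of -0.34 against 0.02 over all genes. Of these, Lef1 (lower) was tested only through the virgin ventral pair and Pygo1 (higher) only through the 16 dpc ventral pair. The filter itself favoured these signs. Over virgin ventral cells Tcf7l1, a TCF factor of follicle stem cells, had a log2 fold change of -1.25, the co-activator Bcl9l of -0.92, and the co-repressors Tle3 and Tle4 of -0.34 and 0.15. Over 16 dpc dorsal cells Tcf7l1, Bcl9l, Tle3 and Tle4 had -0.19, 0.18, -0.15 and -0.37. Tcf7l1 and Bcl9l were lowest on a replicate 2 array of a 16 dpc group, those with the high actin ratios.

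Feedback and target genes other than Axin2 (8 of 16 tested, 0 called) had a median of -0.16 over virgin ventral and -0.09 over dorsal cells in 16 dpc ventral cells. Cd44, an adhesion receptor and Wnt target, had both 16 dpc ventral arrays above the other 4, at 8277 and 9012 in 16 dpc ventral, 4817 and 6695 in 16 dpc dorsal and 4818 and 6208 in virgin ventral cells (log2 fold change 0.66, adjusted p = 0.259, limma, over virgin ventral). Ascl2, a target of the canonical branch, had -0.31 over virgin ventral and -0.51 over dorsal cells. The Dishevelled antagonist Nkd2 was present on no 16 dpc ventral array. Against dorsal cells, where both arrays called it present, it was at least 2.04-fold lower. No bound is given against virgin ventral cells, where it was present on 1 array of 2. The log2 differences from virgin ventral cells were -0.10 within replicate 1 and -1.84 within replicate 2. Nkd2 was tested only through the 16 dpc dorsal pair, so the filter itself favoured a lower 16 dpc ventral value against dorsal cells. Of 12 planar polarity genes 10 were tested and 0 called, with Prickle2 at 1845 and 1885 in 16 dpc ventral, 2654 and 2353 in 16 dpc dorsal and 3243 and 3241 in virgin ventral cells (log2 fold change -0.80, adjusted p = 0.0951, limma, over virgin ventral), Vangl1 at -0.64 and Ankrd6 at 0.29. Over 16 dpc dorsal cells Prickle2, Vangl1 and Ankrd6 had -0.42, -0.12 and -0.51. Vangl1 had -0.22 within replicate 1 and -1.06 within replicate 2 over virgin ventral cells.

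**Figure D4:**
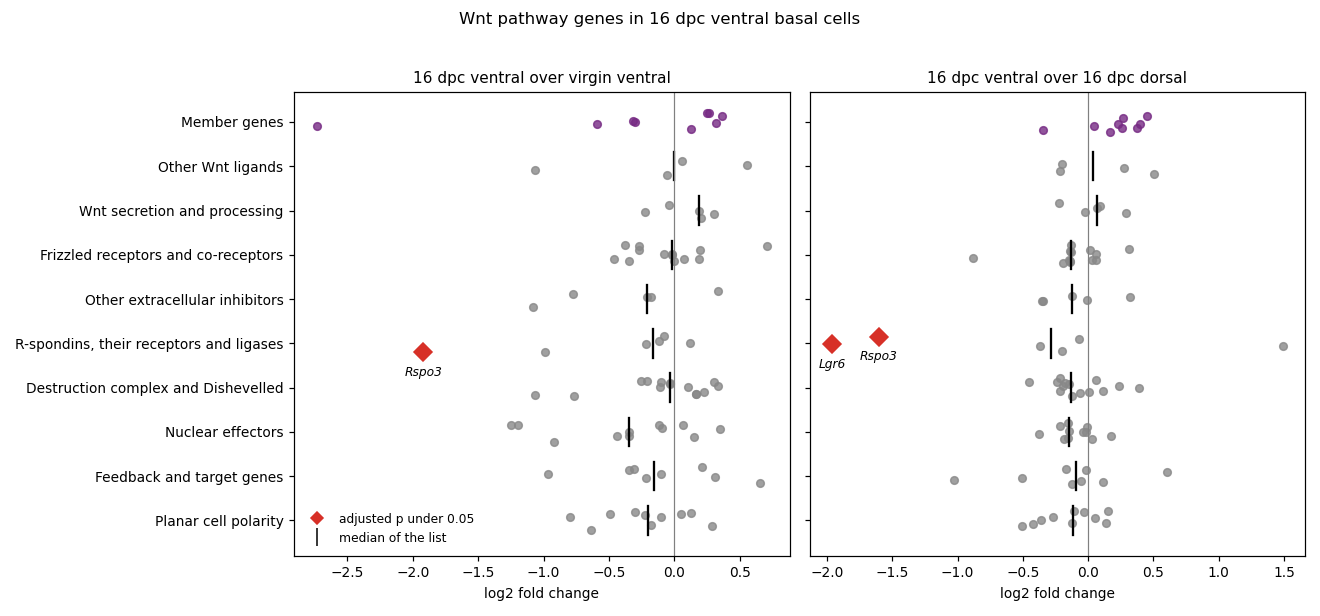
Log2 fold change (horizontal axis) of the 9 tested members and of 76 other Wnt pathway genes by list, for 16 dpc ventral over virgin ventral on the left and over 16 dpc dorsal on the right. Each circle is a gene, black bars are list medians and red diamonds mark an adjusted p under 0.05. Rspo3 is the only diamond on the left at -1.92, and Lgr6 (-1.96) and Rspo3 (-1.60) are those on the right.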

How the data were processed

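Total RNA from sorted α6 integrin-positive cells was labelled and hybridised to Affymetrix Mouse430_2 3′ arrays, 2 per group. The authors processed them with Affymetrix Expression Console (version 1, submitters' processing notes). The deposited values are MAS5 signals, an intensity on a linear scale in which every array has the same trimmed mean, with a detection call per probe set. The value table of the same arrays differed from them by a relative 5e-06 at most. Their genome build: not given in the sources used here.

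Probe sets were named from GEO's platform annotation. Of 45101 probe sets 34945 name 1 gene, 932 several and 9160 none, 64 are controls, and those with several were left out. Of the named ones 34741 matched RefSeq by gene number. Signals were set to at least 1 and turned to log2. Each gene was represented by its probe set of highest mean. A gene was tested if some group had it present on all of its arrays (10993 of 18193 genes). The test was limma 3.58.1 (lmFit, eBayes with trend) in R 4.3.3 on all 6 arrays (3 residual degrees of freedom), two-sided, and p-values were adjusted by Benjamini-Hochberg across the tested genes (threshold 0.05). Group values are signals and log2 fold changes subtract mean log2 signals. Bounds set a dim array at its own signal or its lowest present signal, whichever was higher. The number of arrays limits the precision. The procedure was tested on simulated data.

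The members and all lists were chosen with earlier results of these data known. The text names all members, in each pathway list the genes called or otherwise those with the smallest p in each comparison of 16 dpc ventral cells, the 3 genes most alike in pattern, and the brightest markers. Alternatives were quantile normalization, other filters, the mean of all probe sets, each probe set as a feature, a floor of 32, no trend, the replicate number as a block, fewer arrays and each array left out. Per the file headers, arrays of 1 replicate number carry a common prefix in all 3 groups, and the headers name a gestation day slightly different from the labels, which were followed. The deviations of same-numbered arrays from their group means correlated at 0.45 (16 dpc ventral with dorsal), 0.01 (16 dpc ventral with virgin) and 0.03 (16 dpc dorsal with virgin). Promoters came from RefSeq (GRCm38.p6).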

Additional observations from a re-analysis of the deposited data

How the results depend on the processing

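No setting called a member, apart from the removal of a pair of arrays described further on, which takes out the arrays on which that member was absent. The count of all genes called moved more. In 16 dpc ventral over virgin ventral cells 22 genes passed, against 5 with the mean of all probe sets, 0 with each probe set as a feature, 0 with a floor of 32, 0 without the trend (Rspo3 lost its call in all 4), 46 with only the 4 arrays compared and 1 to 59 without 1 array. In 16 dpc ventral over 16 dpc dorsal cells 9 passed, against 0, 1, 1, 1 and 0 under the same settings and 0 to 7 without 1 array. In 16 dpc dorsal over virgin ventral cells 0 passed, against 7 with quantile normalization, 5 with genes present on all 6 arrays, 12 with the 4 arrays and 0 to 33 without 1 array. Blocking on replicate number gave counts of 86, 16 and 11, with 0 members. Same-numbered arrays did not all deviate together, and the main test did not treat the numbers as pairs. The 16 dpc ventral and dorsal arrays did deviate together in part (r = 0.45), and whether they share mice is not stated.

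Without both 16 dpc arrays of high actin ratio, a setting added after seeing the data, 115, 24 and 62 genes passed, and 1 member, Wnt16, in the first and last comparison (log2 fold change -1.59 and -1.77), which is no support for that gene, since it was absent on both arrays left out. In that setting 16 dpc dorsal over virgin ventral values of Wnt3 (-0.12), Wnt10a (-0.24) and Axin2 (-0.0059) turned sign. With the mean of all probe sets, Wnt5a shrank to -0.037 in 16 dpc ventral and -0.48 in 16 dpc dorsal over virgin ventral cells, Wnt7b (0.25), Sfrp1 (-0.17) and Axin2 (0.039) turned in 16 dpc ventral over virgin ventral, Axin2 (0.36) in 16 dpc ventral over 16 dpc dorsal, and Wnt7b (0.087) and Axin2 (-0.32) in 16 dpc dorsal over virgin ventral cells. The Axin2 mean includes its absent probe set, and the Wnt5a mean includes 1456976_at, which was present on 1 array. Leaving out 1 array gave ranges across 0 for Sfrp1 (-0.20 to 0.46) and Dkk3 (-0.26 to 0.76) in the first comparison, for Wnt10a (-0.046 to 0.50) and Wnt16 (-1.10 to 1.19) in the second and, in the third, for Wnt3 (-0.12 to 0.23), Wnt4 (-0.23 to 0.22), Wnt10a (-0.24 to 0.31), Sfrp1 (-0.46 to 0.20), Dkk3 (-0.72 to 0.31) and Axin2 (-0.0059 to 0.090). Wnt16 has no value when genes must be present on all 6 arrays. The cause of these changes was not tested. Of the alternative member values 403 kept their direction and side of the threshold, 24 turned sign and 2 passed where they had not.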
